A study of Mus musculus with 16 samples.

Results

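The genotype difference in the day 7 change was measured in mouse skin as the change between day 0 and day 7 of 4-hydroxytamoxifen in K14deltaNB-cateninER mice minus the same change in wild-type mice. It compared 10 of the 16 arrays of the study, in 4 groups. The transgenic mice belonged to line D2 and were sampled at day 0 (2 arrays) and day 7 (3 arrays) of the drug. Their transgene places under the Krt14 promoter, which works in basal keratinocytes and the outer root sheath of follicles, a stable β-catenin that lacks its N terminus and is joined to the hormone-binding part of the oestrogen receptor. The drug activates the fusion protein. The wild-type mice were C57BL/6 and were sampled at day 0 (3 arrays) and day 7 (2 arrays) of the same drug. The 6 arrays at day 1, 3 of each genotype, gave levels between these times and took part in the estimate of the spread. Every animal at day 7, of either genotype, had received 4-hydroxytamoxifen. No group given only the vehicle was analysed here. A change that both genotypes share therefore cannot be assigned to the drug, the handling or the passing of time. Without such a group a difference between the genotypes cannot be assigned to the drug either, nor told apart from one of strain background. The strain background of line D2 is not given in the labels, D2 is a single line, and whether 1 animal stands behind each array is not stated, so the p-values describe the spread among samples, which may be technical.

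β-catenin carries the canonical Wnt signal: when stabilised it enters the nucleus and acts with LEF and TCF factors on target genes. In adult skin this signal starts the growth phase of the hair follicle, in which matrix cells at the base of the follicle divide and give rise to the inner root sheath and the hair shaft. The follicle then also draws on melanocytes, which supply pigment, and is shaped by Hedgehog, BMP and Notch signals. Gene levels here come from total skin, in which epidermis, follicles, dermis, fat, vessels, immune cells and the thin muscle below the skin are mixed, so fewer cells of a type and less RNA per cell cannot be told apart.

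A change below is the day 7 level minus the day 0 level on the log2 scale, after 32 was added to each scaled intensity, and the difference is the transgenic change minus the wild-type change. A positive difference means that a gene rose more, or fell less, in transgenic skin. Errors beside these values are standard errors (SE) of the fit, levels are scaled intensities on single arrays, and TG7-1 stands for the transgenic array of day 7 with replicate number 1, WT0-2 for a wild-type array of day 0 and so on. A gene was called at an adjusted p under 0.05 in limma. Esr1 encodes the oestrogen receptor, part of which is in the fusion. It stood at 408 and 401 in transgenic and at 49.97, 23.6 and 13.4 in wild-type skin at day 0, and at 218, 256 and 189 against 13.3 and 18.2 at day 7. The transgenic arrays were above the wild-type arrays on both days, as their labels have it, and Esr1 was the only gene of 9058 called between the genotypes at day 0 (0.011%). Its change did not pass the test of a difference (-0.49 ± 0.49, adjusted p = 0.51). Krt14 and Krt5, the keratins of basal keratinocytes, were bright on all 10 arrays, at 7741 to 9051 and 7531 to 9888, and their differences were -0.06 (95% interval -0.33 to 0.21) and -0.07 (-0.37 to 0.24). Ctnnb1, the β-catenin gene, rose by 0.39 in transgenic skin and stood at 0.00 in wild-type skin, a difference of 0.39 ± 0.11 (adjusted p = 0.0185) that was no longer called without TG0-2 (0.34) or WT7-2 (0.31). Which parts of the transgene transcript these probe sets read is not known.

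Trimmed mean intensities of the 16 arrays ran from 359 to 548 before scaling, replicates correlated across genes at r = 0.973 to 0.988, and the 3' to 5' ratio of the Gapdh control probe sets ran from 0.884 to 1.26. Arrays were scaled to a common trimmed mean. Without that scaling the median over all genes was -0.10 for the difference, -0.13 for the transgenic and -0.07 for the wild-type change, against 0.00, 0.01 and -0.03 with it.

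The day 7 change differed between the 2 genotypes in 2154 of the 9058 genes tested (23.8%). The difference was positive in 1095 (12.1% of those tested) and negative in 1059 (11.7%). In 717 of the 2154 the difference was at least 1 log2 unit. Most of these genes were called in transgenic skin only: 1517 of the 2154 were called in the transgenic and not in the wild-type change, and 266 the other way round. A further 106 were called in both genotypes in the same direction, 102 in both in opposite directions, and 163 in neither. The transgenic change by itself was called in 3508 genes (38.7%; 18.6% rose and 20.1% fell) and the wild-type change in 1035 (11.4%; 5.46% rose and 5.96% fell). At day 7 the genotypes differed directly in 40.5% of all genes and in 2072 of these 2154, at day 0 in 0 of them, and in 52 the day 0 difference was larger than the day 7 difference. Without the scaling of arrays 724 genes were called, 39% of them positive against 50.8% with it.

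**Figure D1:**
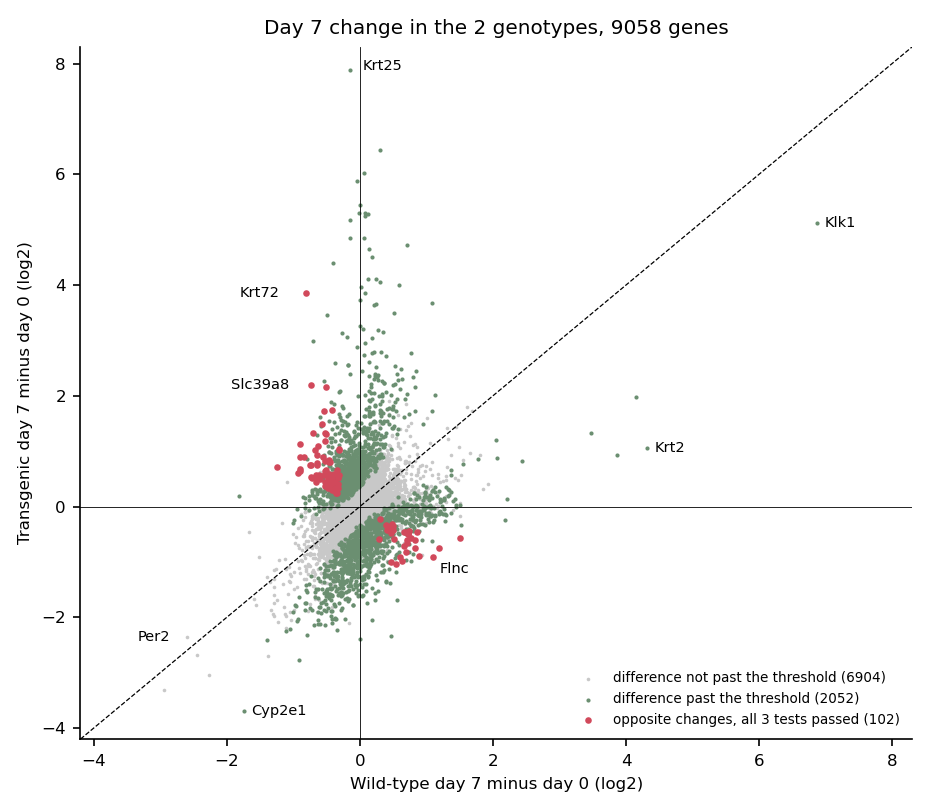
Change from day 0 to day 7 on the log2 scale in wild-type skin (horizontal axis) and transgenic skin (vertical axis) for the 9058 genes tested, each point a gene; the dashed line marks equal change. The 102 genes called with opposite changes lie in the upper left (70) and lower right (32), while the largest differences, such as that of Krt25, lie close to the vertical axis, where the wild-type change is near 0.

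Genes that moved in opposite directions were first taken by a strict rule, under which the transgenic change, the wild-type change and the difference each had to be called. It found 102 genes (1.13% of those tested): 70 that rose in transgenic and fell in wild-type skin (0.773%) and 32 that fell in transgenic and rose in wild-type skin (0.353%). The first set had median changes of 0.58 and -0.51 in the 2 genotypes, the second of -0.57 and 0.66, against 0.01 and -0.03 over all genes. These movements were moderate: both changes were at least 0.5 in size in 49 of the 102 genes and at least 1 in 0 of them, with the transgenic change the larger in 56. In 100 of the 102 the day 0 and day 7 arrays did not overlap in either genotype. Over all genes 59.7% did not overlap in transgenic and 44% in wild-type skin, each genotype taken alone. All 102 differed between the genotypes at day 7. Both results largely follow from choosing the genes by tests on these same arrays and are no further support. A called difference of the same sign was kept by 96 when counted from day 1 in place of day 0. Counted that way, 81 kept opposite signs of the 2 changes and 15 still met the strict rule. A wider rule, a called difference with changes of at least 0.5 in opposite directions, found 75 genes (0.828%). Read over all 15058 kept probe sets, 122 met the strict rule (0.81%).

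The strict count leaned on the small wild-type groups. It was 24 without WT7-1, 33 without WT7-2, 54 without WT0-2, 61 without TG7-1 and 63 without WT0-3. Without the scaling of arrays it was 4, with 3 of the 102 among them. The difference of all 102 genes was called with the same sign whichever array was left out. The signs of both changes stayed opposite in all 102 in each of these fits and without scaling. The 102 were chosen on these same arrays, however. In 100 of them the day 0 and day 7 arrays did not overlap in either genotype, so leaving out 1 array could not turn a sign there. The genes Ccnd1, Ccnd2, Igfbp2, Prim1 and Vwa5a passed all 3 tests whichever array was left out.

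The machinery that copies DNA held the most opposite genes of the 47 gene lists with a tested member, with at most 2 on any other. Of 25 genes on the DNA replication list, 22 had a positive and 0 a negative difference (88% called against 23.8% of all genes), 24 rose in transgenic skin and 10 fell in wild-type skin, all 10 of these meeting the strict rule. The wild-type change was below 0 in 21 of the 25. The 10, some of them named after their values were seen, were Mcm2, Mcm4, Mcm5, Mcm6 and Mcm7, which are subunits of the helicase that unwinds origins, Cdt1 and Orc6, which load that helicase, Prim1, the primase subunit that makes the RNA primer, Pole, a leading-strand polymerase subunit, and Lig1, the ligase that seals Okazaki fragments. The list's median was 1.26 for the difference, 0.85 for the transgenic and -0.32 for the wild-type change. The wild-type fall is the less firm side: the number of members called there was 1 without WT7-1, 3 without WT7-2, 3 without WT0-2, 4 without WT0-3 and 0 without the scaling of arrays. Without scaling 13 members still rose in transgenic skin, 15 had a positive difference and the median wild-type change was -0.36.

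Promoters of 3 opposite genes of this process are printed because they hold the letters TTCCCGC, the core of the sites read by E2F factors, which switch on genes for the start of DNA synthesis. They are the RefSeq windows in GRCm38.p6 from 250 bases before to 50 after the start site, for Prim1 at chr10:128014965-128015264 on the plus strand, for Dtl at chr1:191575495-191575794 on the minus strand and for Cdt1 at chr8:122567765-122568064 on the plus strand. Dtl encodes the receptor that marks Cdt1 protein for destruction during DNA synthesis. Capitals mark the motif, which reads TTCCCGC on the gene's strand in Prim1 and Dtl and GCGGGAA, its reverse complement, in Cdt1.
Prim1: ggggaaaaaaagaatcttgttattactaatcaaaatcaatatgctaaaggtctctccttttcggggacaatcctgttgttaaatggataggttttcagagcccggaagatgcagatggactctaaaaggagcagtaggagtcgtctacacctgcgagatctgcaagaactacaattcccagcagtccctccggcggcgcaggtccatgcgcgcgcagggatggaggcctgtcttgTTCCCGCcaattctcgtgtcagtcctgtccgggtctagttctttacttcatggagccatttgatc
Dtl: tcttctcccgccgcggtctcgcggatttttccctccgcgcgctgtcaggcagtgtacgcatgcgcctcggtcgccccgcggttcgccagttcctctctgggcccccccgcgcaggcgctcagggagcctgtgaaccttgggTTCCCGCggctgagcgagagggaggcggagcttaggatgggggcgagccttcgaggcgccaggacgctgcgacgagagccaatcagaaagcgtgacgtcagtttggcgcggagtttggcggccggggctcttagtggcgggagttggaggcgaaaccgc
Cdt1: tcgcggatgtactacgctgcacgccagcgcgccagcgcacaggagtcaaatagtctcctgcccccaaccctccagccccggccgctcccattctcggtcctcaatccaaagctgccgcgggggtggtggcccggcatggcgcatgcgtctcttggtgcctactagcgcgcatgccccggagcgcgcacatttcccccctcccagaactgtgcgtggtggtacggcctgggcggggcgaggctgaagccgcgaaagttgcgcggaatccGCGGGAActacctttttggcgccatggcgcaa

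The motif TTCCCGC was searched on both strands after the replication genes had been seen. It was in a promoter window of 9.58% of the 7293 tested genes matched to a window by symbol. A gene with several windows was counted once, if any of them held the letters. The motif was in 13 of the 55 matched genes that rose in transgenic and fell in wild-type skin (23.6%) and in 0 of 18 of the reverse set. Of all matched genes with a called positive difference, the 55 among them, 14.3% held it. Of those with a called negative difference 7.17% held it. On the DNA replication list it was in 9 of 21 (42.9%), and in 3 of the 8 matched opposite genes of that list (37.5%). The others of the 13 are not on that list. The windows of the 55 genes had a median GC content of 62.3% against 60.7% for all and 57% for the 18. The letters CTTTGAT of LEF and TCF sites were in 3.22% of all matched genes and in 0 of the 55. The E-box CACGTG was in 11.8% and in 10 of the 55 (18.2%). Among genes with a called positive difference these shares were 2.44% and 13.3%, and with a negative one 3.4% and 8.87%. These are matches of letters in short windows and show no binding.

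Mcm5 had the largest difference on that list. It stood at 246 and 284 at day 0 and at 743, 775 and 881 at day 7 in transgenic skin, and at 222, 304 and 297 and then 163 and 183 in wild-type skin. The groups did not overlap in either genotype, and the genotypes overlapped at day 0. The changes were 1.49 ± 0.16 and -0.57 ± 0.16, a difference of 2.06 ± 0.22 (adjusted p = 1.89e-05). At day 1 it was above its day 0 level in both genotypes, at 612, 518 and 408 and 448, 438 and 516, so that the wild-type level first rose and by day 7 lay below its start. Mcm2 (1.73), Mcm7 (1.37), Mcm4 (1.35), Mcm6 (1.31), Pole (1.57), Lig1 (1.5), Cdt1 (1.25) and Orc6 (0.97) had smaller differences in the same direction. The wild-type fall of Mcm5 was not called when any of WT0-2, WT0-3, WT7-1 and WT7-2 was left out, while its difference was called in every such fit.

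Prim1 passed all 3 tests in each of the 10 fits without an array. It moved from 619.8 and 651 to 931, 891 and 824 in transgenic skin and from 662, 656 and 588 to 409 and 375 in wild-type skin. The wild-type fall (-0.65 ± 0.10) was the larger of its changes, the transgenic rise being 0.45 ± 0.10, and the difference was 1.10 ± 0.14 (adjusted p = 6.28e-05). A second probe set of Prim1 gave a difference of 1.43 with both changes called in the same directions. Dtl moved from 117 and 101 to 307, 353 and 311 in transgenic and from 84.4, 122 and 108 to 41.6 and 61.7 in wild-type skin, changes of 1.33 ± 0.15 and -0.71 ± 0.15 and a difference of 2.04 ± 0.21 (adjusted p = 1.23e-05). Cdt1 moved from 552 and 615 to 1062, 1028 and 1044 and from 467, 693 and 623 to 439 and 405, and in both genotypes its day 1 level was above its day 0 level (1000.5, 1065 and 1049 and 738, 742 and 746).

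Ccnd1 and Ccnd2 encode D cyclins, which carry cells from G1 towards DNA synthesis, and Ccnd1 is also a β-catenin target. Ccnd1 rose from 1365 and 1470.4 to 3079.8, 2798 and 2842 in transgenic skin and fell from 1473, 1644 and 1608 to 981 and 976 in wild-type skin. All 4 groups kept apart from their partners, with changes of 1.02 ± 0.09 and -0.67 ± 0.09 and a difference of 1.69 ± 0.13 (adjusted p = 8.47e-07). Ccnd2 rose from 2987 and 2309 to 4824, 5068 and 4895 and fell from 2898, 3045 and 2901 to 1747 and 1392, changes of nearly equal size (0.90 ± 0.14 and -0.90 ± 0.14) and a difference of 1.80 ± 0.19 (adjusted p = 1.98e-05). At day 1 the levels of Ccnd2 in transgenic skin, 2638, 1999 and 1986, reached below those of day 0, and in wild-type skin they were already down, at 1853, 1669.5 and 2063. For Ccnd2 the 5 other probe sets gave differences of 1.44 to 2.34, all called, with the wild-type fall not called in 2 of them. Ccnd1 no longer met the strict rule with the mean of its probe sets or without the scaling of arrays, and a dimmer probe set had a wild-type change of 0.14. Enzymes that supply nucleotides to a dividing cell moved likewise: Ctps, CTP synthase, by 1.73 and -0.54, and Shmt1, a serine hydroxymethyltransferase of one-carbon metabolism, by 1.31 and -0.51. Myb, a transcription factor of proliferating progenitors, moved by 1.74 and -0.42, and passed all 3 tests in only 2 of the 10 fits without an array.

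**Figure D2:**
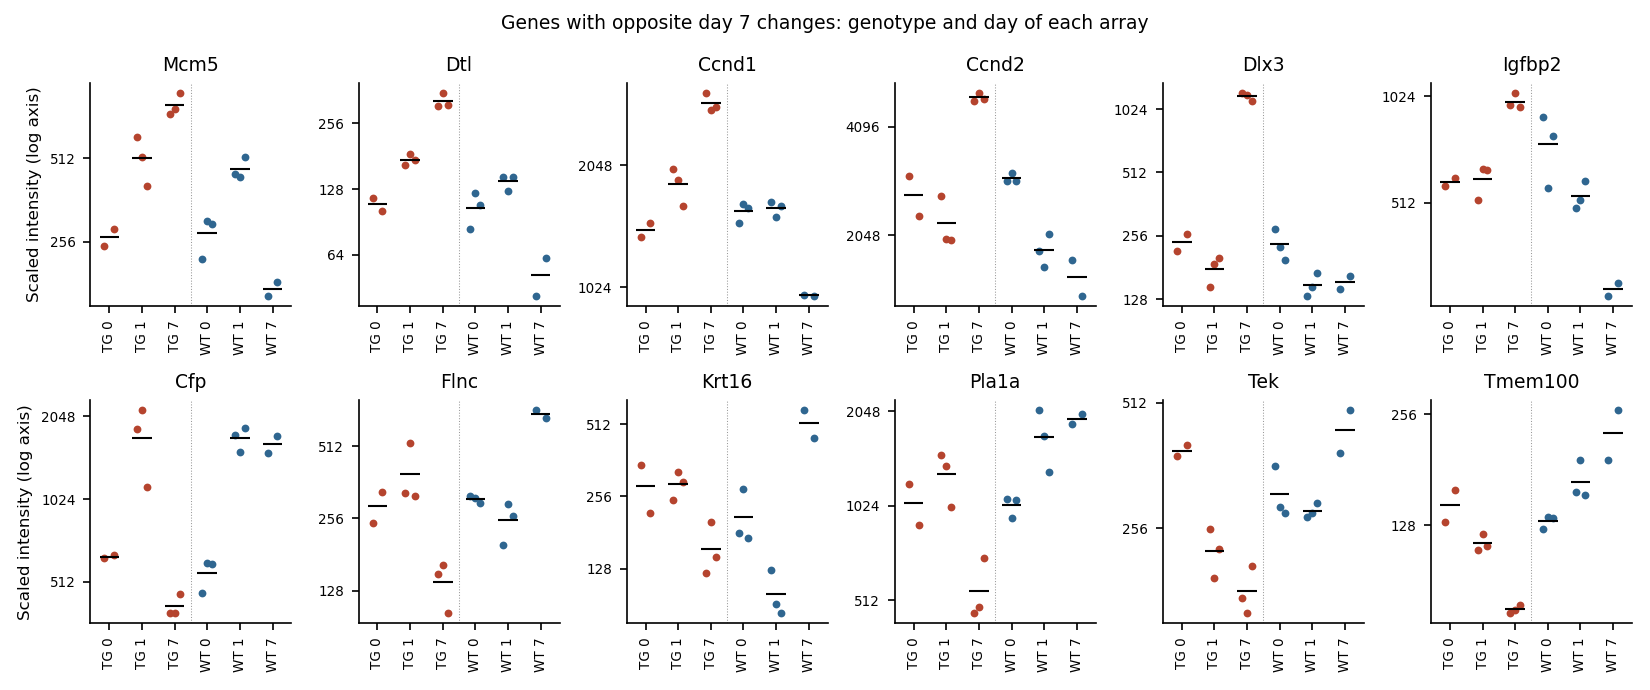
Scaled intensity on a log axis for 12 genes with opposite changes on each of the 16 arrays, grouped by genotype (TG transgenic, WT wild type) and day; points are arrays and bars are group means. In the upper row, such as Mcm5 and Ccnd1, the day 7 arrays lie above the day 0 arrays of transgenic skin and below those of wild-type skin; in the lower row, such as Cfp and Flnc, they lie the other way.

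Genes of the later cell cycle rose in transgenic skin too. Of 28 genes on the list of cell cycle and mitosis, 24 had a positive and 0 a negative difference and 26 rose in transgenic skin, while in wild-type skin 4 rose and 0 fell. None of the 28 met the strict rule, which 1.13% of all genes met. The median transgenic change was 1.95. The median wild-type change was 0.41, and it was above 0 in 27 of the 28. Mki67, the proliferation marker, went from 442 and 424 to 2289.6, 2133 and 2063 in transgenic skin and from 367, 605 and 464 to 586 and 643 in wild-type skin, where the groups overlapped. Its difference was 1.87 ± 0.20 (adjusted p = 2.03e-05) and its wild-type change, 0.36 ± 0.14, was not called (adjusted p = 0.115). Cks2, a subunit of cyclin-dependent kinase, and Top2a, which untangles DNA before mitosis, had differences of 1.67 and 1.69, and Top2a rose by 0.53 in wild-type skin. The number of members that rose in wild-type skin ran from 0, without either wild-type day 7 array, to 8, without WT0-2, and was 0 without the scaling of arrays. It was 1 without WT0-1 or WT0-3 and 2 without TG7-1 or TG7-2. Whether the 2 lists differ in their wild-type change was not tested.

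**Figure D3:**
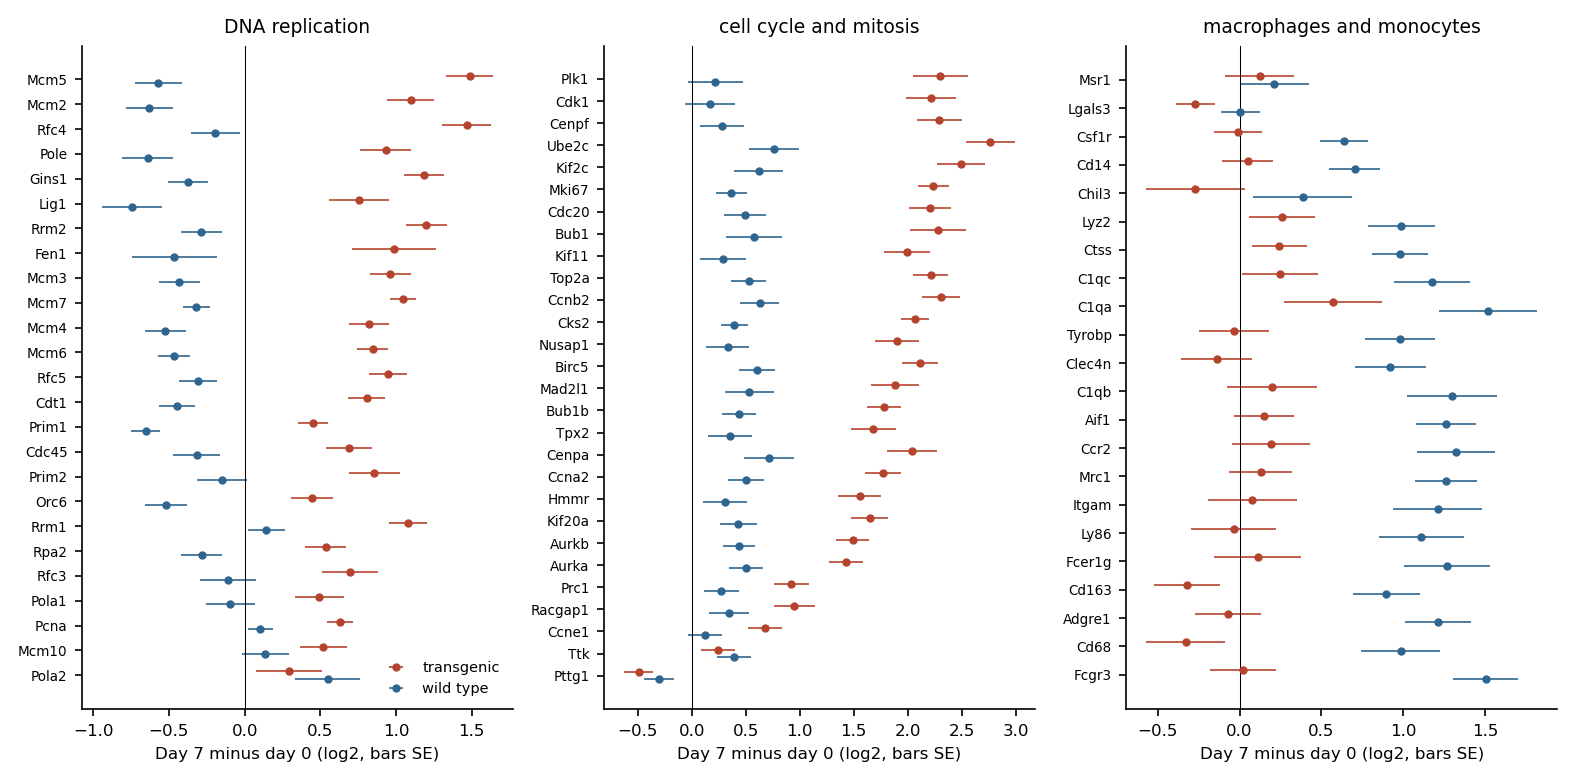
Change from day 0 to day 7 on the log2 scale, with standard errors, of each tested gene of the DNA replication (25), cell cycle and mitosis (28) and macrophage (22) lists in transgenic (red) and wild-type (blue) skin. Replication genes lie mostly on opposite sides of 0 in the 2 genotypes, mitosis genes mostly to the right of 0 in both with the transgenic change larger, and macrophage genes lie near 0 in transgenic skin and to the right of it in wild-type skin.

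Genes that build ribosomes rose in transgenic skin as well. Of 22 genes of ribosome biogenesis 12 had a positive and 0 a negative difference, 15 rose in transgenic skin (9 without TG0-1), and 0 were called in the wild-type change. Fbl, the methyltransferase fibrillarin, and Ncl, the nucleolar protein nucleolin, had differences of 1.13 ± 0.17 and 0.66 ± 0.12. Without the scaling of arrays 1 of the 22 had a called ribosome biogenesis difference, which was neither Fbl nor Ncl, and the median was 0.54 against 0.65.

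Some other opposite genes that rose in transgenic skin are known from the follicle or from signalling, with at most 2 on any list of follicle or signalling genes. Krt72, a keratin of the inner root sheath, had the largest difference among them, 4.67 ± 0.33 (adjusted p = 3.58e-07), from 60.7 and 68.2 to 1585, 1758 and 909 in transgenic and from 69.7, 66.0 and 97.4 to 43.1 and 19.3 in wild-type skin. The wild-type levels are low, and it no longer passed all 3 tests in 4 of the 10 fits without an array (WT0-1, WT0-2, WT0-3 or WT7-2), nor with a larger constant added in place of 32. Krt72 passed all 3 tests in 5 of the 11 settings other than leaving out an array. It also failed without scaling, without the filter on dim probe sets and with only the 10 arrays compared. The replicate block and day 1 in place of day 0 lost it too. Dlx3, a homeobox factor needed for hair formation, went from 216 and 262 to 1218, 1199 and 1122 in transgenic and from 278, 228 and 198 to 143 and 166 in wild-type skin, a difference of 2.67 ± 0.21 (adjusted p = 8.04e-07). A dimmer probe set of Dlx3 gave 1.99 with a wild-type change of -0.06, so that the called fall is that of the brighter one. Dlx3 passed all 3 tests in 6 of the 10 fits without an array and in 6 of the 11 other settings. Lhx2, a factor of follicle buds and stem cells, had 633 and 887 and then 1454, 1241 and 1255 in transgenic skin, 599, 751 and 652 and then 442 and 384 in wild-type skin, and a difference of 1.43 ± 0.19 (adjusted p = 0.000132). It was below its day 0 level at day 1 in both genotypes (368, 435 and 415 and 407, 457 and 443), so that transgenic levels turned upward between day 1 and day 7.

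Among secreted and signalling genes of the same set, Igfbp2, which binds insulin-like growth factors, had the largest wild-type fall, from 895, 564 and 792 to 280.1 and 305, while transgenic skin rose from 571 and 601 to 964, 1044 and 952. Its changes were 0.72 ± 0.15 and -1.25 ± 0.15, a difference of 1.97 ± 0.21 (adjusted p = 1.91e-05). Wnt5a, a Wnt ligand of the dermal papilla, moved by 0.89 ± 0.22 and -0.84 ± 0.22, from 292 and 198 to 557, 468 and 412 and from 214, 251 and 313 to 99.6 and 165. It passed all 3 tests in 6 of the 10 fits without an array (not without TG0-2, WT0-2, WT0-3 or WT7-1), and not with the mean of its probe sets. The BMP-responsive genes Id3, named after its value was seen, and Id4 encode inhibitors of basic helix-loop-helix factors and had differences of 0.99 and 1.18, and the receptor Notch1 had 1.00. Without the scaling of arrays these 3 genes kept their sign and were not called. A dimmer Notch1 probe set gave 0.21 and was not called. Tgfb3, a growth factor of the TGF-β family, had 1.85, the zinc transporter Slc39a8 2.93 and the matrix protein gene Fbln1 1.55. All 3 tests were passed in few of the 10 fits without an array for Tgfb3 (1), Id3 (2) and Slc39a8 (4), and in 9 for Fbln1. Col12a1, a fibril-associated collagen, had a difference of 2.04, but transgenic minus wild-type skin was -1.0 at day 0 and 1.04 at day 7, so that its starting levels were apart too.

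Among the 32 genes that fell in transgenic and rose in wild-type skin were genes known from epidermis, vessels, muscle and immune cells. Cfp, properdin, a complement factor made by myeloid cells, had the largest difference, -2.08 ± 0.28 (adjusted p = 0.000121). It stood at 625 and 638 at day 0, 1841, 2153 and 1131 at day 1 and 394, 394 and 463 at day 7 in transgenic skin, and at 466, 599 and 592, 1753, 1519 and 1854 and 1510.4 and 1737 in wild-type skin. Both genotypes were up at day 1, and by day 7 only the wild-type arrays were still above their day 0 level. Cfp passed all 3 tests in 6 of the 10 fits without an array (not without TG0-1, TG0-2, TG7-1 or TG7-2). The gene Pla1a, a phospholipase, followed the same course, from 1202 and 887 to 466, 486 and 696 in transgenic and from 1077, 937 and 1070.4 to 1863 and 2012 in wild-type skin (-1.79 ± 0.28, adjusted p = 0.000473).

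Krt16, a keratin of wounded and hyperproliferative epidermis, fell from 346 and 218 to 122, 199 and 143 in transgenic and rose from 181, 275 and 172 to 584 and 447 in wild-type skin. The changes were -0.74 ± 0.23 and 1.2 ± 0.23, the difference -1.94 ± 0.32 (adjusted p = 0.000627), and at day 1 the wild-type arrays had been lower than at day 0, at 127, 91.0 and 83.7. Other wound-type genes did not share its transgenic fall. Of 13 on that list 3 rose and 1 fell in transgenic skin, and 4 rose and 0 fell in wild-type skin. The difference was positive in 1 and negative in 2 (23.1% called against 23.8% of all genes). Flnc, filamin C of muscle, went from 244 and 331 to 151, 164 and 103 in transgenic and from 318, 312 and 296 to 722 and 668 in wild-type skin, a difference of -2.0 ± 0.29 (adjusted p = 0.000261). Both genes passed all 3 tests under the 11 settings other than leaving out an array. Of the 10 fits without an array, Krt16 passed in 7 (not without TG0-1, TG7-1 or WT7-1) and Flnc in 9 (not without TG0-2). Among vessel genes, Tek, the angiopoietin receptor, moved by -1.0 ± 0.14 and 0.47 ± 0.14, Tmem100, a gene of endothelial cells, by -0.71 ± 0.14 and 0.66 ± 0.14, and Lmo2, a factor of blood and vessel cells, by -0.60 ± 0.17 and 0.83 ± 0.17. Blood vessel genes as a list did not share the wild-type rise. Of 15 tested, 1 met the strict rule, 2 rose in wild-type skin and 6 were below 0 there, at a median wild-type change of 0.07. For Tek the 3 tests were all passed in 3 of the 10 fits without an array, for Tmem100 in 9 and for Lmo2 in 7. The remaining genes of the rule for naming were Htra3 (-1.63), C1qtnf1 (-1.57), Vwa5a (-1.57), Hlx (-1.52) and Akr1c13 (-1.51). For Vwa5a transgenic minus wild-type skin was 0.59 at day 0 and -0.98 at day 7.

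The largest positive differences were of another kind: genes of the hair follicle that rose in transgenic skin with wild-type changes near 0. The 12 largest of all genes were hair keratins, keratin-associated proteins, Tchh, S100a3 and Gprc5d. Of 12 hair shaft keratins tested, 11 had a positive difference, of 13 keratin-associated proteins 12, and of 10 inner root sheath or companion layer genes 8, with 0 negative in each list (91.7%, 92.3% and 80% called). The medians of the difference were 3.63, 2.59 and 4.50, and those of the wild-type change 0.01, 0.08 and -0.02. Krt25, an inner root sheath keratin, stood at 1.98 and 7.22 and then 8449, 9768 and 7747 in transgenic skin and stood at 2.25 to 17.3 in wild-type skin, a difference of 8.04 ± 0.29 (adjusted p = 6.49e-11). At such low starting levels the value depends on the added 32 and the ratio of intensities is larger. Krt71, which pairs with it, went from 113 and 125 to 9208, 11333 and 8891 in transgenic skin, with wild-type arrays at 75.2 to 129 (5.95 ± 0.22, adjusted p = 6.49e-11).

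Krt27 (6.15), Tchh, trichohyalin of the inner root sheath (5.17), and Padi3, the enzyme that modifies it (4.33), were close behind. For the shaft, Krt35 went from 40.1 and 40.4 to 3099, 3633 and 2669.9 in transgenic skin, with wild-type arrays at 44.6 to 52.7 (5.43 ± 0.20, adjusted p = 6.49e-11). Krt33a (5.92), Krt34 (4.99), the cuticle protein S100a3 (5.32), the receptor Gprc5d (4.81) and the keratin-associated Krtap4-16 (5.30), Krtap8-1 (5.23) and Krtap3-1 (5.16) completed the largest. Late genes of the shaft were uneven among the transgenic day 7 arrays: Krtap8-1 stood at 5484, 7398 and 1773 and Krt34 at 1276, 1937 and 406, TG7-3 being lowest in both. Mean log2 levels of the keratin-associated proteins were 8.11 in that array and up to 10.3 in the others of the group, against 6.05 to 6.34 on the 7 arrays at day 0 and of wild-type skin at day 7. Without TG7-3 all 13 had a called difference, and without TG7-1 or TG7-2 it was 7. Hair keratins and keratin-associated proteins are families of close copies, so the split of signal among members is uncertain.

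Genes that direct the follicle rose with them. Of 18 hair matrix and placode regulators 12 had a positive and 0 a negative difference. Msx2, a homeobox factor of the matrix, went from 73.4 and 103 to 808, 866 and 621 in transgenic skin and stood at 83.7 to 102 in wild-type skin (2.67 ± 0.23, adjusted p = 2.32e-06), and Cux1 had a difference of 1.37. Of 7 genes of the Hedgehog pathway 4 were positive: the receptor Ptch1, which is itself a target, went from 487 and 531 to 3209.9, 3427 and 2808, with wild-type arrays at 385 to 578 (2.73 ± 0.21, adjusted p = 5.82e-07), and the factors Gli1 and Gli2 had 2.48 and 1.79. Of 17 BMP and Id genes 8 were positive, 0 negative, with the BMP pseudoreceptor Bambi at 2.53 ± 0.27. Without the scaling of arrays 3 of these 17 were called.

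Wnt and β-catenin targets were divided. Of 16 tested, 8 had a positive and 0 a negative difference, at a median of 0.66, made of a transgenic change of 0.31 and a wild-type change of -0.26. Lgr5, a stem cell receptor and Wnt target, went from 253 and 358 to 853, 856 and 764 in transgenic skin, with wild-type arrays at 244 to 308 (1.27 ± 0.20, adjusted p = 0.000401), and the factor Sox4 had 1.32, rising in both genotypes. Axin2, a feedback inhibitor often used to read the pathway, did not pass: it stood at 750.1 and 725 and 845, 785 and 836 in transgenic and at 714, 717 and 842 and 664 and 688 in wild-type skin, a difference of 0.30 (95% interval 0.00 to 0.61, adjusted p = 0.144). Myc had 0.35 (0.00 to 0.69, adjusted p = 0.132), with a called wild-type fall of -0.43. Mycn, its relative, rose from 74.3 and 105 to 796, 735 and 759 in transgenic skin and stood at 36.2 to 92.6 in wild-type skin (2.32 ± 0.31, adjusted p = 0.000121), and with the mean of its probe sets it had 0.88 and was not called (adjusted p = 0.114). Of 16 Wnt ligands and secreted antagonists 6 were positive and 2 negative, among them the antagonist Wif1 (1.77) and the ligand Wnt11 (1.34). The number of target genes that fell in wild-type skin was 4, and 2 without WT0-3 or either wild-type day 7 array and 1 without the scaling of arrays.

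Pigment genes rose with the follicle genes. Of 11 melanocyte genes 7 had a positive and 1 a negative difference. Tyrp1, an enzyme of melanin synthesis, went from 96.1 and 168 to 1228, 1334 and 1078 in transgenic skin and stood at 92.5 to 115 in wild-type skin (2.88 ± 0.28, adjusted p = 8.37e-06). Dct, another such enzyme, and Pmel, the scaffold of the pigment granule, had 2.91 and 2.80.

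**Figure D4:**
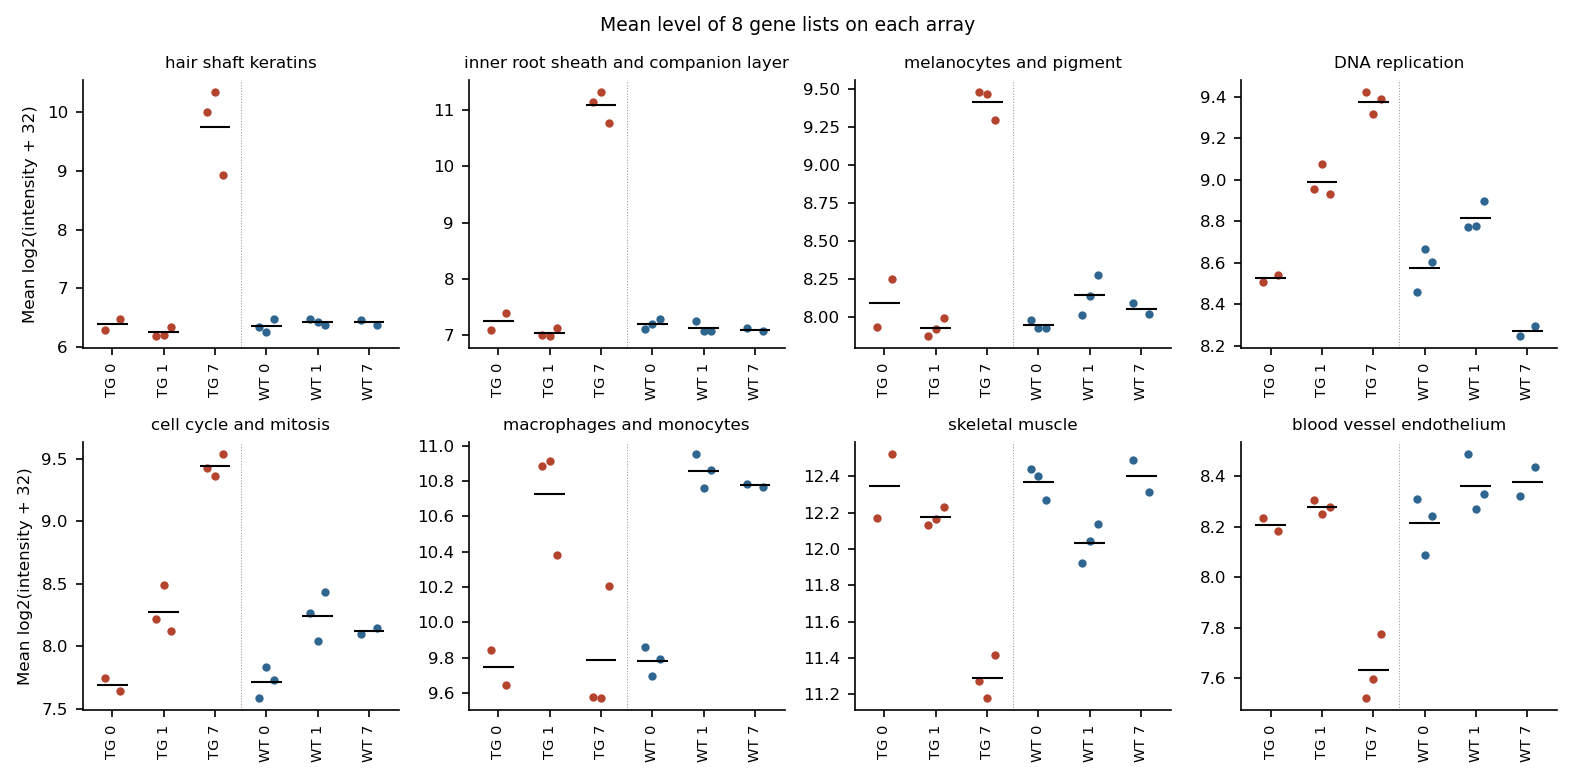
Mean log2(intensity + 32) over the tested genes of 8 lists on each of the 16 arrays, by genotype (TG transgenic, WT wild type) and day; points are arrays, bars are group means, and the axes have different ranges. Transgenic day 7 arrays stand above all others for hair shaft, inner root sheath, pigment, replication and mitosis genes and below all others for muscle and vessel genes, and for macrophage genes TG7-1 and TG7-2 lie near the day 0 arrays and TG7-3 above them (10.21), while both wild-type day 7 arrays lie near the day 1 arrays.

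Macrophage and monocyte markers gave a negative difference that came from wild-type skin. Of 22 genes 19 rose and 0 fell in wild-type skin, 0 rose and 0 fell in transgenic skin, and 15 had a negative and 0 a positive difference. Medians were 1.05 for the wild-type and 0.06 for the transgenic change. Fcgr3, an Fc receptor, went from 714, 734 and 639 to 2097 and 1960.2 in wild-type skin and from 879 and 719 to 670.3, 691 and 1131 in transgenic skin, where the groups overlapped (-1.48 ± 0.28, adjusted p = 0.00166). Adgre1, which encodes F4/80, had -1.28 ± 0.29 and Aif1, a gene of activated macrophages, -1.11 ± 0.26. At day 1 these markers had been high in both genotypes: Fcgr3 stood at 1729.7, 1876 and 1169 and 1713, 1622 and 1576, and the list's mean log2 level was 10.38 to 10.92 in transgenic and 10.76 to 10.95 in wild-type skin, against 9.65 to 9.86 at day 0. At day 7 it was 10.8 on both wild-type arrays and 9.57 to 10.2 on the transgenic arrays, TG7-3 being the highest. Ccl12, a chemokine that attracts monocytes, had a difference of -0.98, and 0.75 as its wild-type change. Other chemokines mostly did not share this. Of 19 CC and CXC chemokine genes 3 had a negative and 0 a positive difference (15.8% called against 23.8% of all genes), and 4 rose in wild-type skin.

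The count of 15 macrophage genes moved with single arrays: it was 6 without TG0-1, TG7-1 or WT7-1, 7 without TG7-2, 8 without WT7-2, 9 without WT0-3 and 19 without TG7-3. The 19 that rose in wild-type skin became 9 without WT7-1 and 10 without WT7-2. It was 9 when dim probe sets were not filtered. Counted from day 1, 0 of the 22 genes of macrophages and monocytes rose in wild-type skin and 18 fell in transgenic skin.

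Some epidermal and kallikrein genes also rose in wild-type skin. Krt2, a keratin of the upper epidermis, had the most negative difference of all, -3.25 ± 0.45 (adjusted p = 0.000148). It went from 51.2, 57.6 and 45.2 to 1975 and 1328 in wild-type skin and from 29.2 and 75.6 to 153, 217 and 74.8 in transgenic skin, where the groups overlapped. Sprr1b, a cornified envelope precursor, went from 67.5, 137 and 57.3 to 530.2 and 446 and from 162 and 65.2 to 70.4, 110.4 and 76.0 (-2.42 ± 0.55, adjusted p = 0.0051). Differentiated epidermis as a list did not follow them: of 23 genes 1 was positive and 6 negative, at a median of -0.27, and 3 of the 23 were negative without TG0-2. Klk1, tissue kallikrein, rose in both genotypes, from 0.99 and 1.03 to 1213, 1101 and 1056 and from 2.02, 3.04 and 40.9 to 5549.7 and 4754, and more in wild-type skin (-1.74 ± 0.42, adjusted p = 0.00715). With 8 added in place of 32 its difference was -1.23 and not called (adjusted p = 0.199), since its day 0 levels are near 0. Its relatives Klk1b27 (-2.93), Klk1b21 (-2.17) and Klk1b24 (-2.15) went the same way, and as near copies of one another they may share signal.

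Several lists of genes that mark other cell types of skin had negative differences. Over all genes 11.7% had a called negative difference, 20.1% fell in transgenic skin and 5.96% fell in wild-type skin. Of 24 skeletal muscle genes 19 had a negative and 0 a positive difference, with medians of -1.05 for the transgenic and 0.00 for the wild-type change. Casq1, the calcium store protein calsequestrin, went from 3461 and 4259 to 1517, 1215 and 1531 in transgenic and from 4204, 3878 and 3629 to 3661 and 3755 in wild-type skin (-1.35 ± 0.19, adjusted p = 0.000151). Pygm, muscle glycogen phosphorylase, and Des, desmin, had -1.69 and -1.47. Of 15 genes of blood vessel endothelium 10 were negative and 0 positive, among them Pecam1 (-1.25 ± 0.21), which joins endothelial cells, and Vwf (-1.02 ± 0.19), the clotting factor they store, and 4 were negative without the scaling of arrays. The mean log2 level of the muscle list was 11.2 to 11.4 on the transgenic day 7 arrays and 11.9 to 12.5 on the other 13. What part the amount of muscle, vessels or follicles in each sample had in the other differences was not tested.

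Of 7 genes of peripheral glia and myelin 4 were negative and 0 positive, among them Mbp, myelin basic protein (-1.42 ± 0.35, adjusted p = 0.00941), which was not called without TG0-1 (-1.21) or WT7-2 (-1.19), and the count was 1 in either case. Of 9 T cell genes 4 were negative: Cd7 went from 240.0 and 287 to 33.2, 10.9 and 30.9 in transgenic skin and from 248, 278 and 252 to 261 and 255 in wild-type skin (-2.39 ± 0.36, adjusted p = 0.000303), and Cd3e, a subunit of the T cell receptor complex, had -0.87 ± 0.21. The T cell list had 44.4% called against 23.8% of all genes. Its median wild-type change was -0.12, with 8 of 9 below 0. Of 16 genes of dermal fat cells 6 were negative (37.5% called against 23.8% of all genes), with Lpin1, lipin, at -0.99. In transgenic skin 13 of the 16 fell, and 1 in wild-type skin. The median change of the fat list was below 0 in both genotypes, -1.23 in transgenic skin and -0.41 in wild-type skin, where 14 of the 16 were below 0. The count of 6 was 3 without WT7-2. Of 26 interferon response genes 9 were negative (34.6% called against 23.8% of all genes), 14 fell in transgenic skin and 0 in wild-type skin. The 14 became 7 without TG0-1. The 9 ranged from 3, without TG0-1, TG7-1, TG7-2 or WT7-2, to 14 without TG7-3. This count was 4 without WT0-1 or without the scaling of arrays. Its lowest value, 3 of 26, is near the 11.7% of all genes with a negative difference in the fit of all arrays. Without that scaling Cd3e was not called and 2 T cell genes were.

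**Figure D5:**
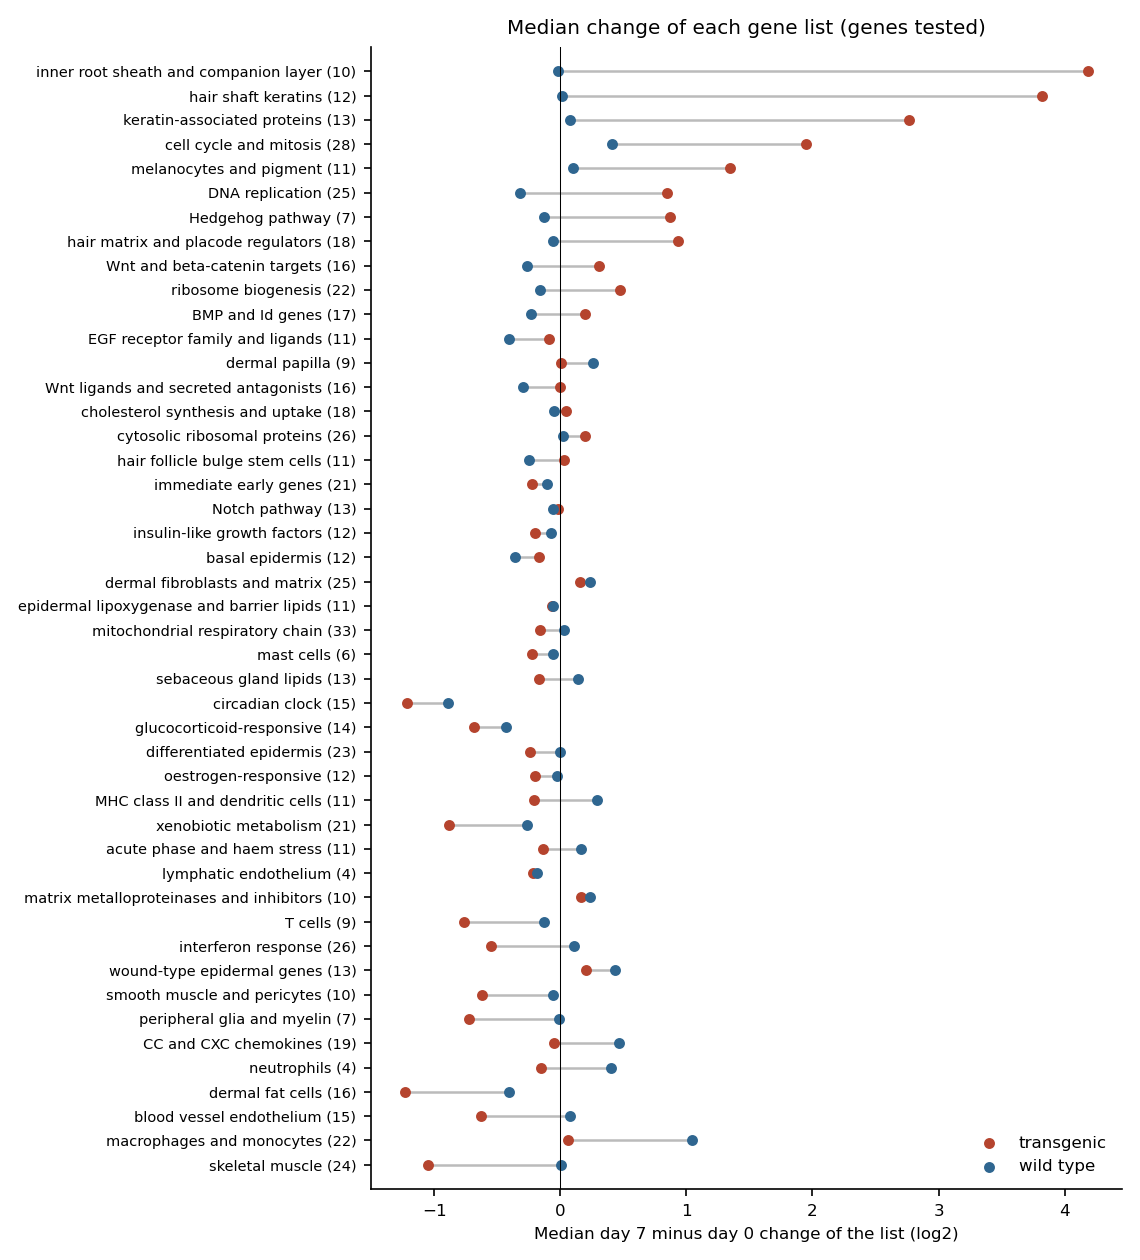
Median change from day 0 to day 7 on the log2 scale over the tested genes of each list (number in brackets) in transgenic (red) and wild-type (blue) skin, ordered by the median difference. The widest gaps are those of the inner root sheath, hair shaft and keratin-associated lists at the top, and skeletal muscle, macrophages and vessel endothelium are at the bottom; macrophages differ through the wild-type change and muscle through the transgenic change.

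Single genes with large negative differences included several that fell in transgenic skin. Pon1, paraoxonase, went from 369 and 339 to 45.5, 34.6 and 53.5 in transgenic skin and from 255, 357 and 321 to 322 and 596 in wild-type skin (-2.81 ± 0.50, adjusted p = 0.00104). Fcgbp, which encodes a mucus-type secreted protein, went from 4570.4 and 4233 to 969.8, 906 and 1293 and from 4265, 4010.2 and 4427 to 4982 and 4593 (-2.22 ± 0.20, adjusted p = 2.39e-06). Igfbp3 and Igfbp5, which bind insulin-like growth factors, had -1.67 and -1.33, opposite in sign to Igfbp2 above, and Igfbp5 was not called with the mean of its probe sets (-0.71). Cd34, a marker of bulge stem cells and of dermal and vessel cells, went from 2923 and 2556 to 1280.4, 990.1 and 1517 in transgenic and from 2489.7, 2501 and 3320.3 to 2627 and 2873 in wild-type skin (-1.12 ± 0.24, adjusted p = 0.00362). The bulge stem cell list as a whole was divided. Of its 11 genes 5 had a positive and 3 a negative difference, at a median of 0.14, and 4 rose and 4 fell in transgenic skin. The 5 became 2 to 4 when 1 array was left out. Cyp2e1, a cytochrome P450 of xenobiotic metabolism, fell in both genotypes, with changes of -3.69 and -1.75 (-1.94 ± 0.33, adjusted p = 0.000805).

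A part of the day 7 change was shared. In 417 genes both changes were called in the same direction, 119 rising and 298 falling, and in 311 of them the difference was not called. Sfrp2, a secreted Wnt antagonist, fell from 895 and 642 to 91.5, 94.0 and 89.9 in transgenic and from 735, 513 and 1097 to 121 and 102 in wild-type skin, a difference of -0.23 (95% interval -1.03 to 0.57). Hamp2, a hepcidin gene, had changes of -3.32 ± 0.59 and -2.94 ± 0.59, and its difference had a wide interval (-2.16 to 1.41). Genes of the daily clock were among them: of 15 on the circadian list 10 fell in transgenic skin and 8 in wild-type skin, while 3 had a negative and 1 a positive difference. The 3 became 6 without TG7-3 and 5 without WT7-2. Per2 went from 556 and 409 to 63.9, 63.7 and 77.0 and from 410.3, 550.0 and 593 to 54.0 and 62.1 (0.25, interval -0.23 to 0.72), and Per1 had -0.25 (-0.84 to 0.35). For Dbp, a clock output factor, the difference of -0.77 was just outside the threshold (adjusted p = 0.0642) and was called without TG0-2 (-0.99), TG7-3 (-0.93), WT0-1 (-0.89) or WT7-2 (-1.03), with quantile normalisation (-0.89, adjusted p = 0.032) and with 8 added (-0.88, adjusted p = 0.0473). Arntl, a positive arm of the clock, rose in wild-type skin by 0.95 and stood at -0.03 in transgenic skin (-0.98 ± 0.25, adjusted p = 0.0101), and Nr1d1 and Rora, which act on it, had -1.14 and -1.06. Pla2g7, a phospholipase, rose by 1.73 ± 0.21 and 1.69 ± 0.21, a difference of 0.04 (-0.59 to 0.67).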

How the data were processed

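RNA of total skin was hybridised to Affymetrix mouse arrays, 16 in all, and per the labels it was extracted with Trizol and labelled with biotin. The deposited values were 1 intensity per probe set on a linear scale per the file headers; no source used here names the software that summarised the probes. Arrays were scaled to a common 2% trimmed mean, 32 was added and log2 was taken (R 4.3.3). Probe sets above the 40th percentile on at least 2 arrays were kept (15058), and each gene was read from its brightest kept probe set with 1 symbol in the platform annotation (9058 genes). limma 3.58.1 fitted all 16 arrays as 6 group means with a variance trend; the difference and each change were two-sided contrasts with Benjamini-Hochberg adjustment over all 9058 genes. Scripts were tested on simulated data. Genes named were the 12 largest differences in each direction, up to 12 opposite genes in each direction, up to 3 members of each list by smallest p, 6 shared changes and a fixed set; others were chosen after their values were seen. The genes and the 48 lists were chosen with earlier results of these data known. The labels give the replicate numbers no meaning, and no pairing was used in the main fit. Deviations of same-numbered arrays of different groups correlated at -0.25 to 0.13 and those of other-numbered arrays at -0.20 to 0.25. With 2 or 3 arrays in a group these values cannot show whether samples were paired. No array shared more than 0.375% of its values with another. Alternatives were quantile normalisation, no scaling, a smaller or larger added constant, other filters, other uses of probe sets, other fits, a replicate block and leaving out each array. No count or depth exists for arrays, and their number limits the precision. Promoter windows came from RefSeq, GRCm38.p6.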

Additional observations from a re-analysis of the deposited data

Results flagged for a closer look

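The test of the genotype difference itself set apart 2154 genes, and 102 of them had called changes in opposite directions in the 2 genotypes. The values below are the differences in the day 7 change, transgenic minus wild type on the log2 scale, of the genes named in the report that passed that test; none of the groups held 4 or more arrays, so single arrays were not tested as outliers.

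Among genes of DNA synthesis and the cell cycle the differences were 2.06 for Mcm5, 1.73 for Mcm2, 1.35 for Mcm4, 1.31 for Mcm6, 1.37 for Mcm7, 2.04 for Dtl, 1.10 for Prim1, 1.25 for Cdt1, 1.5 for Lig1, 1.57 for Pole and 0.97 for Orc6. For the cyclins and enzymes they were 1.69 for Ccnd1, 1.80 for Ccnd2, 2.27 for Ctps and 1.82 for Shmt1, and for later genes 1.87 for Mki67, 1.67 for Cks2 and 1.69 for Top2a. Fbl had 1.13 and Ncl 0.66.

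Other opposite genes that rose in transgenic skin had 2.16 for Myb, 4.67 for Krt72, 2.67 for Dlx3, 1.43 for Lhx2, 1.73 for Wnt5a, 1.97 for Igfbp2, 1.85 for Tgfb3, 2.93 for Slc39a8, 2.04 for Col12a1, 0.99 for Id3, 1.18 for Id4, 1.00 for Notch1 and 1.55 for Fbln1. Those that fell there had -2.08 for Cfp, -2.0 for Flnc, -1.94 for Krt16, -1.79 for Pla1a, -1.47 for Tek, -1.37 for Tmem100, -1.44 for Lmo2, -1.52 for Hlx, -1.63 for Htra3, -1.57 for C1qtnf1, -1.57 for Vwa5a and -1.51 for Akr1c13.

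Hair genes had 8.04 for Krt25, 6.15 for Krt27, 5.95 for Krt71, 5.92 for Krt33a, 5.43 for Krt35, 4.99 for Krt34, 5.17 for Tchh, 5.32 for S100a3, 4.81 for Gprc5d, 5.23 for Krtap8-1, 5.30 for Krtap4-16, 5.16 for Krtap3-1 and 4.33 for Padi3. Regulators and pigment genes had 2.67 for Msx2, 1.37 for Cux1, 2.53 for Bambi, 1.32 for Sox4, 1.27 for Lgr5, 2.32 for Mycn, 2.48 for Gli1, 1.79 for Gli2, 2.73 for Ptch1, 1.77 for Wif1, 1.34 for Wnt11, 0.39 for Ctnnb1, 2.91 for Dct, 2.88 for Tyrp1 and 2.80 for Pmel.

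Genes that rose more in wild-type skin had -1.48 for Fcgr3, -1.28 for Adgre1, -1.11 for Aif1, -0.98 for Ccl12, -3.25 for Krt2, -2.42 for Sprr1b, -1.74 for Klk1, -2.93 for Klk1b27, -2.17 for Klk1b21, -2.15 for Klk1b24 and -0.98 for Arntl. Genes that fell in transgenic skin had -2.81 for Pon1, -2.39 for Cd7, -2.22 for Fcgbp, -1.35 for Casq1, -1.69 for Pygm, -1.47 for Des, -1.25 for Pecam1, -1.02 for Vwf, -1.42 for Mbp, -1.12 for Cd34, -0.87 for Cd3e, -0.99 for Lpin1, -1.94 for Cyp2e1, -1.67 for Igfbp3, -1.33 for Igfbp5, -1.14 for Nr1d1 and -1.06 for Rora.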

How the results depend on the processing

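Of the 101 genes named above with a called difference, 86 kept the call and the sign in every fit that tested them. These fits were the 11 alternative settings run and the 10 fits without an array. The stricter filter on dim probe sets tested 1775 of the 2154 genes, and a gene it removed was not counted as lost. Without the scaling of arrays the calls fell to 724 for the difference, 1775 for the transgenic and 258 for the wild-type change, with 4 strict opposite genes, while 102 of the 102 strict genes kept the signs of both changes. Among named genes Ctnnb1, Orc6, Id3, Id4, Notch1, Fbl, Ncl and Cd3e then lost the call and kept the sign. With the larger of the alternative constants added before log2 the wider rule for opposite genes gave 27, and over all kept probe sets it gave 115, with 5473 called for the transgenic change. Day 1 in place of day 0, an alternative chosen after seeing the data, gave 136 under the wider rule and 277 for the wild-type change, kept 15 of the 102 strict genes, lost the calls of Ctnnb1, Orc6, Lmo2, Ccl12 and Arntl, and turned Tnfrsf12a from an uncalled 0.15 to a called -1.66 (adjusted p = 0.00199). With the mean of the probe sets of each gene 1 of the 2154 genes was called with the other sign.

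Leaving out 1 array at a time gave 1457 to 2357 called differences, 24 to 147 strict opposite genes (lowest without WT7-1, highest without TG7-3) and 329 to 1125 called wild-type changes, the latter 446 without WT7-2 and 646 without WT0-2. With the replicate number as a block 1953 differences and 84 strict genes were called, 1813 and 73 of them also called without it. The labels give the numbers no meaning, and the block moved neither count by over 1.5 times. Groups of 2 or 3 arrays, and signal near background for the hair keratins at day 0, limit these values: the size of their differences depends on the added constant.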
